A study of Mus musculus with 21 samples.

Results

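The matrix metalloproteinase genes Mmp2, Mmp3, Mmp7, Mmp8, Mmp9, Mmp10, Mmp11, Mmp12, Mmp13 and Mmp14 were followed across RNA sequencing libraries of mouse colon and AOM/DSS colon tumours. They are 10 of the 24062 genes in the count table and 10 of the 23 Mmp genes in the RefSeq gene table, and were taken by their symbols. The genes were chosen by their differences between tumour and normal colon in these same libraries. Those differences are therefore given as values and fold changes with no p-value, and counts of calls among them are descriptions only. The differences by genotype and sex were not the contrasts used for the choice, and are tested. They share libraries with that choice, which was made with earlier results of these data known, so their p-values are not independent of it. All 10 genes passed the filter on low counts, which left 15936 genes.

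The libraries fall into 7 groups of 3, all from C57BL/6 mice. Wild-type males, wild-type females and males with the App NL-G-F knock-in each gave a normal colon group and a tumour group, and knock-in females gave normal colon. The App NL-G-F mouse carries mutations linked to Alzheimer's disease in its own App gene, which encodes the amyloid precursor protein. Tumours came from AOM/DSS, a regimen in which the carcinogen azoxymethane is combined with dextran sulfate sodium, an agent that injures the colon lining. Normal libraries are labelled as untreated, while the series' design text speaks of normal tissue beside tumours or of colon without tumours. The 7 groups include no knock-in female tumours. The labels do not say whether the libraries of a group came from separate animals, so the p-values measure the spread between these libraries.

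Matrix metalloproteinases are zinc-dependent proteases that cut proteins of the extracellular matrix and many cell surface and signalling proteins. Most are secreted as inactive proenzymes, are activated by cleavage of a propeptide, and are held in check by the tissue inhibitors of metalloproteinases, the TIMPs. Transcription of several of them is induced by cytokines such as interleukin 1 and tumour necrosis factor through AP-1, the dimer of Fos and Jun family proteins. In the gut they take part in tissue remodelling after injury, and Mmp7 is also the enzyme that activates the alpha-defensins of mouse Paneth cells.

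Of the genes, 6 are neighbours. On chromosome 9 of GRCm38.p6, 10 Mmp genes span 427 kb from 7272514 to 7699585 in the order Mmp13, Mmp12, Mmp1b, Mmp3, Mmp1a, Mmp10, Mmp8, Mmp27, Mmp20 and Mmp7, and the RefSeq table places no other protein-coding gene between them. The 4 genes elsewhere are Mmp2 at chr8:92827290-92853421, Mmp9 at chr2:164940326-164955850, Mmp11 at chr10:75923221-75932502 and Mmp14 at chr14:54431598-54442456.

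Promoter windows from RefSeq on GRCm38.p6, from 250 bases before to 50 bases after each start, were found for 8 of the 10 genes. The AP-1 heptamer TGAGTCA, searched on both strands and so also as TGACTCA, was present in 5 of the 8. The stretches below are shown because these 5 genes of the cluster share that motif close to the start, and Mmp8, a gene of the same cluster, is shown for comparison, without it. Each runs from 120 bases before to 30 bases after the start on the plus strand of chromosome 9, 5′ to 3′, with the heptamer in capitals. Their positions are chr9:7272394-7272543 for Mmp13, chr9:7502222-7502371 for Mmp10 and chr9:7445702-7445851 for Mmp3. Those of Mmp7, Mmp12 and Mmp8 are chr9:7691970-7692119, chr9:7347254-7347403 and chr9:7558309-7558458.
Mmp13: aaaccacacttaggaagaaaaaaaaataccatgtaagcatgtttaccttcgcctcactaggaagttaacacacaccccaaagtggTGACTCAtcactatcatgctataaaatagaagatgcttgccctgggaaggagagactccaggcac
Mmp10: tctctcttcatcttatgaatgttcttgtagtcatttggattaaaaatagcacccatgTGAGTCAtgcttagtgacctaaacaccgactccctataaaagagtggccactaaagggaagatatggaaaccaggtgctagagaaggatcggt
Mmp3: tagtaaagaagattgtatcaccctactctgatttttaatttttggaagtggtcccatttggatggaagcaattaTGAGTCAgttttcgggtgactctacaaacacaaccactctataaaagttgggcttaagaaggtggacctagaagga
Mmp7: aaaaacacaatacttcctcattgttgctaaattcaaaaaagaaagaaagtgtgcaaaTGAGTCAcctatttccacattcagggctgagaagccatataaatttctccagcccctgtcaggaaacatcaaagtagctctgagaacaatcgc
Mmp12: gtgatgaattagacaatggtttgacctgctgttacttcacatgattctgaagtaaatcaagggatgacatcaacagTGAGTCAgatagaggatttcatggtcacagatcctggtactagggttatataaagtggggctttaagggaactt
Mmp8: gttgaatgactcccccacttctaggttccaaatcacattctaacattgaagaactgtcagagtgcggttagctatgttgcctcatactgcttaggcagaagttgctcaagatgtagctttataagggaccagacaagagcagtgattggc

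The first base of the heptamer lay 35 bases before the start in Mmp13, 44 in Mmp12, 46 in Mmp3 and 63 in Mmp10 and Mmp7. Mmp12 and Mmp7 each have a further RefSeq start, and the windows of those starts hold no heptamer. Nor do the windows of Mmp8, Mmp11 and Mmp14. Over all genes of the promoter table, 5.95% of 27025 had the heptamer in a window. The hexamer TATAAA, searched on both strands and so also as TTTATA, was in the same 5 windows and, as TTTATA, in that of Mmp8, against 15.7% of all genes. The other 4 windows held neither motif. Heptamer and hexamer stood in the same window in 1.12% of all genes. These are matches of letters, and no measurement of factor binding was made.

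**Figure D1:**
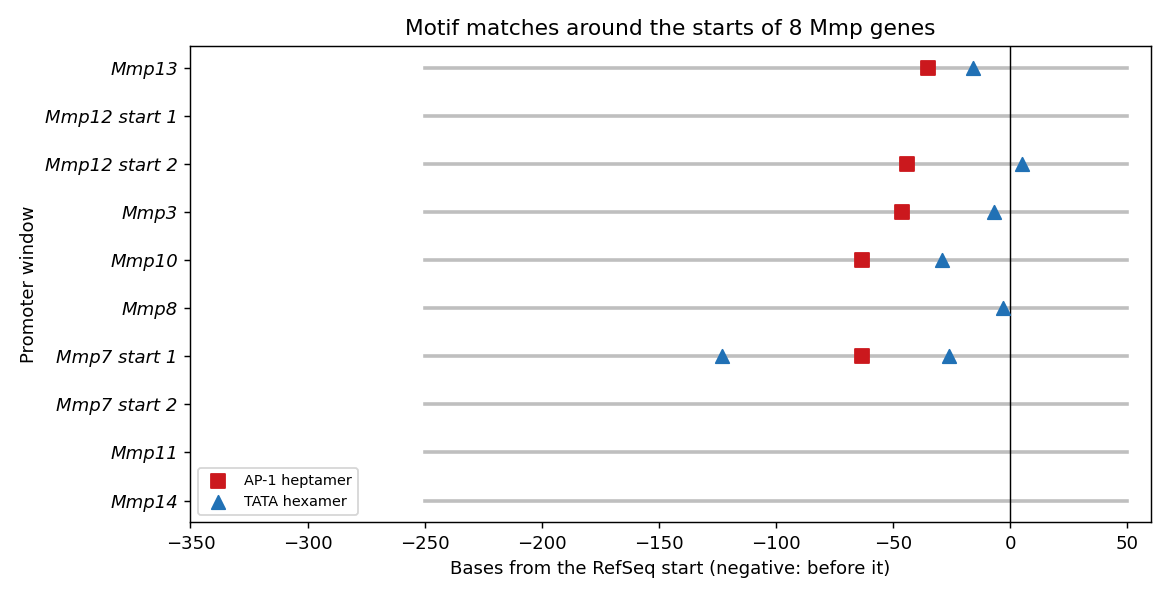
Positions of the AP-1 heptamer (squares) and the TATA hexamer (triangles) in 10 RefSeq promoter windows of 8 Mmp genes. The horizontal axis is the distance in bases from the start to the first base of the match, and grey lines are the 300 bases searched. Matches were found in 6 windows, 5 of them with the heptamer, from 63 to 35 bases before the start, and that of Mmp8 with the hexamer alone.

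Values are CPM, the count scaled to TMM-adjusted library size. Library totals ran from 3414123 counts in wild-type male tumour replicate 2 to 26174008 in wild-type female normal replicate 1, so that the floor of 3 counts ran from 0.127 to 0.873 CPM. Over the 21 pairs of replicates the chi-square per degree of freedom was at least 6.603, so no pair agreed within counting noise. Epithelial markers summed to between 4561 and 8224 CPM in every library. Their sums were lower in tumours without overlap in wild-type males, 5111 to 5332 against 5958 to 7907 CPM. The same held in wild-type females, 4561 to 5343 against 7586 to 8224 CPM. In knock-in males they overlapped, at 5589 to 6347 against 5859 to 6356 CPM. Of the 8 markers 6, 7 and 0 were called lower in these backgrounds, and 1 higher in each. The 7 smooth muscle markers summed to 1945 to 9582 CPM in the normal libraries and to 175 to 979.5 CPM in the tumour libraries. In bulk tissue, fewer cells of a type and less RNA per cell cannot be told apart. The part of these marker differences in the values below was not tested.

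Mmp13 and Mmp8 encode collagenases, which cut fibrillar collagen. Mmp13 was at 5.91, 53.4 and 1.29 CPM in wild-type male normal colon and at 104, 128 and 78.7 CPM in wild-type male tumours. The knock-in males had it at 4.11, 5.06 and 6.74 CPM in normal colon and at 41.45, 366 and 199 CPM in tumours. In wild-type females normal colon held 2.75, 5.71 and 3.25 CPM and tumours 160.3, 388 and 524 CPM. Knock-in female normal colon was low again except for replicate 1, with 13.8, 1.69 and 1.30 CPM. Of the 9 tumour libraries 8 lay above each of the 12 normal libraries, and wild-type male normal replicate 2 was the 1 normal library above the lowest tumour. The log2 fold change between tumour and normal was 2.35 (SE 1.03) in wild-type males, 5.25 (SE 1.19) with the knock-in and 6.58 (SE 1.29) in wild-type females. Without wild-type male normal replicate 2, the value in wild-type males was 4.71, and without knock-in male tumour replicate 2 that of knock-in males was 4.47.

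Mmp8, the collagenase of neutrophils, was the scarcest of the 10 genes. Its median was 0.164 CPM over the normal libraries and 2.84 CPM over the tumour libraries. Its highest levels were those of wild-type female tumours, at 7.33, 3.98 and 6.74 CPM, and the normal colon of these females held 0, 1 and 0 counts. Against the floor of 3 counts per library, wild-type female tumours were at least 17.9-fold higher. The log2 fold change was 2.90 (SE 0.84) in wild-type males, or 3.99 without normal replicate 2, and 1.20 (SE 0.72) in knock-in males. All 3 groups of tumours lay above their normal libraries without overlap.

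Mmp10, Mmp3 and Mmp11 carry the name stromelysin. The first pair are close paralogs of broad substrate range that also activate other pro-MMPs, while Mmp11 is activated inside the cell by furin. Mmp10 was at 5.86, 58.5 and 1.19 CPM in wild-type male normal colon and at 119, 197 and 80.4 CPM in the tumours. In knock-in males the normal libraries held 4.39, 2.34 and 7.43 CPM and the tumours 53.9, 197 and 145 CPM. In wild-type females it was at 1.18, 3.90 and 0.465 CPM in normal colon and at 239, 260.4 and 391 CPM in tumours. Knock-in female normal colon held 12.1, 0.674 and 0.306 CPM, with the highest value again in replicate 1. Its levels followed those of Mmp13: wild-type male normal replicate 2 was again the high normal library, and the tumours of wild-type females were the highest of all. Tumours differed from normal colon by log2 fold changes of 2.58 (SE 1.08) in wild-type males, 4.83 (SE 1.23) in knock-in males and 7.43 (SE 1.45) in wild-type females. Without wild-type male normal replicate 2 the first of these was 5.08, and without wild-type female normal replicate 2 the last was 8.23.

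Mmp3 had another pattern. In wild-type males it was at 3.68, 4.94 and 3.08 CPM in normal colon and at 5.83, 5.82 and 3.50 CPM in tumours, and the groups overlapped. In knock-in males normal colon held 5.42, 3.67 and 0.692 CPM, and the tumours ranged from 2.79 CPM in replicate 1 to 88.6 CPM in replicate 2, with 25.0 CPM in replicate 3. Wild-type female tumours were at 22.4, 51.0 and 39.5 CPM, all above the 0.972, 1.81 and 3.87 CPM of their normal colon. Knock-in female normal colon held 2.68, 2.70 and 0.613 CPM. Fold changes on the log2 scale were 0.34 (SE 0.93), 3.57 (SE 0.93) and 4.24 (SE 1.01) in the same order of groups. The value of knock-in males was 2.04 without tumour replicate 2, and that of wild-type females 4.88 without normal replicate 3. The ratio of Mmp3 to Mmp10 in wild-type male tumours was 0.0491, 0.0296 and 0.0435, and in knock-in male tumours it was 0.0518, 0.450 and 0.172. Reads shared between these paralogs could not be identified, since the handling of reads with several matches is not given in the sources used here.

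Mmp11 moved over a narrower range. It was at 6.19, 5.47 and 3.98 CPM in wild-type male normal colon and at 13.97, 10.8 and 12.2 CPM in wild-type male tumours. Knock-in males had 7.66, 5.06 and 7.17 CPM in normal colon and 7.55, 3.79 and 7.44 CPM in tumours, which overlapped. Wild-type females had 1.31, 1.81 and 2.01 CPM in normal colon and 8.69, 8.30 and 5.98 CPM in tumours. Knock-in female normal colon was at 4.05, 3.93 and 6.89 CPM, above the wild-type female normal libraries and overlapping the tumours of wild-type females. The log2 fold changes in tumours were 1.24 (SE 0.29) in wild-type males, -0.09 (SE 0.29) in knock-in males and 2.20 (SE 0.33) in wild-type females.

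Mmp2 and Mmp9 are the gelatinases, which degrade denatured collagen and basement membrane collagen. Mmp2, a product mainly of stromal cells, was at 72.0, 89.9 and 81.5 CPM in wild-type male normal colon and at 96.2, 118 and 111 CPM in wild-type male tumours. Knock-in males had 87.7, 89.4 and 69.6 CPM in normal colon and 99.8, 137 and 125 CPM in tumours. In wild-type females Mmp2 was at 25.9, 24.7 and 32.8 CPM in normal colon and at 58.1, 98.0 and 104 CPM in tumours. Knock-in female normal colon held 89.0, 86.4 and 83.0 CPM. Normal colon of wild-type females was thus the lowest group, below every other library, and the other 3 normal groups overlapped. In the order wild-type males, knock-in males and wild-type females, its tumour log2 fold changes were 0.42 (SE 0.18), 0.55 (SE 0.18) and 1.65 (SE 0.19).

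Mmp9, made largely by neutrophils and other myeloid cells, had a median of 4.53 CPM over the normal libraries, with a range from 1.18 to 25.6 CPM. Over the tumour libraries the median was 67.4 CPM and the range 23.4 to 122 CPM. Knock-in male normal replicate 3, at 25.6 CPM, was above knock-in male tumour replicate 2, at 23.4 CPM, and this was the only overlap of a normal with a tumour library. Log2 fold changes of 3.06 (SE 0.78), 1.92 (SE 0.76) and 4.64 (SE 0.91) were found in the same order. The value of knock-in males was 3.28 without normal replicate 3, and that of wild-type females 4.05 without normal replicate 1 and 5.40 without normal replicate 3.

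Mmp7, matrilysin, is an epithelial enzyme that lacks the hemopexin domain of most other family members. In wild-type males it was at 37.2, 97.95 and 3.78 CPM in normal colon and at 282, 209 and 146 CPM in tumours. Knock-in males had 83.7, 32.5 and 61.3 CPM in normal colon and 188, 92.5 and 210.4 CPM in tumours. Wild-type females had 3.13, 1.53 and 0.619 CPM in normal colon and 344, 334 and 385 CPM in tumours. Knock-in female normal colon held 7.50, 0.337 and 0.230 CPM. The female normal libraries of both genotypes overlapped, and 5 of the 6 male normal libraries were at least at 32.5 CPM. The log2 fold changes were 2.19 (SE 0.87) in wild-type males, 1.47 (SE 0.85) in knock-in males and 7.39 (SE 1.17) in wild-type females. The first was 3.32 without wild-type male normal replicate 2 and the last 8.32 without wild-type female normal replicate 1. Paneth cell markers, 5 in number, summed to 67.3 to 720.4 CPM in male normal colon, to 12.0 to 44.5 CPM in female normal colon and to 325 to 1199 CPM in tumours. The marker Defa24 was at 0 in all 6 female normal libraries. The part of Paneth-type cells in the Mmp7 values was not tested.

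Mmp12, the elastase of macrophages, and Mmp14, a membrane-bound enzyme that activates pro-Mmp2, were the 2 genes whose 9 tumour libraries all lay above all 12 normal libraries. Mmp12 ranged from 0.465 to 4.96 CPM in normal colon, with a median of 1.78, and from 6.26 to 43.3 CPM in tumours, with a median of 20.05. Its log2 fold changes were 2.81 (SE 0.54) for wild-type males, 2.10 (SE 0.54) for knock-in males and 5.51 (SE 0.68) for wild-type females. Macrophage markers summed to 170.5 to 296 CPM in normal colon and to 181 to 362 CPM in tumours. Mmp14 was at 146, 189.6 and 93.5 CPM in wild-type male normal colon and at 339.8, 407 and 344 CPM in the tumours. Knock-in males had 173, 109 and 147 CPM in normal colon and 211.5, 248 and 278 CPM in tumours. Wild-type females had 53.0, 38.6 and 56.2 CPM in normal colon and 252, 291 and 340.2 CPM in tumours, and knock-in female normal colon held 95.1, 67.8 and 84.1 CPM. The log2 fold changes were 1.34 (SE 0.22), 0.78 (SE 0.22) and 2.58 (SE 0.24).

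**Figure D2:**
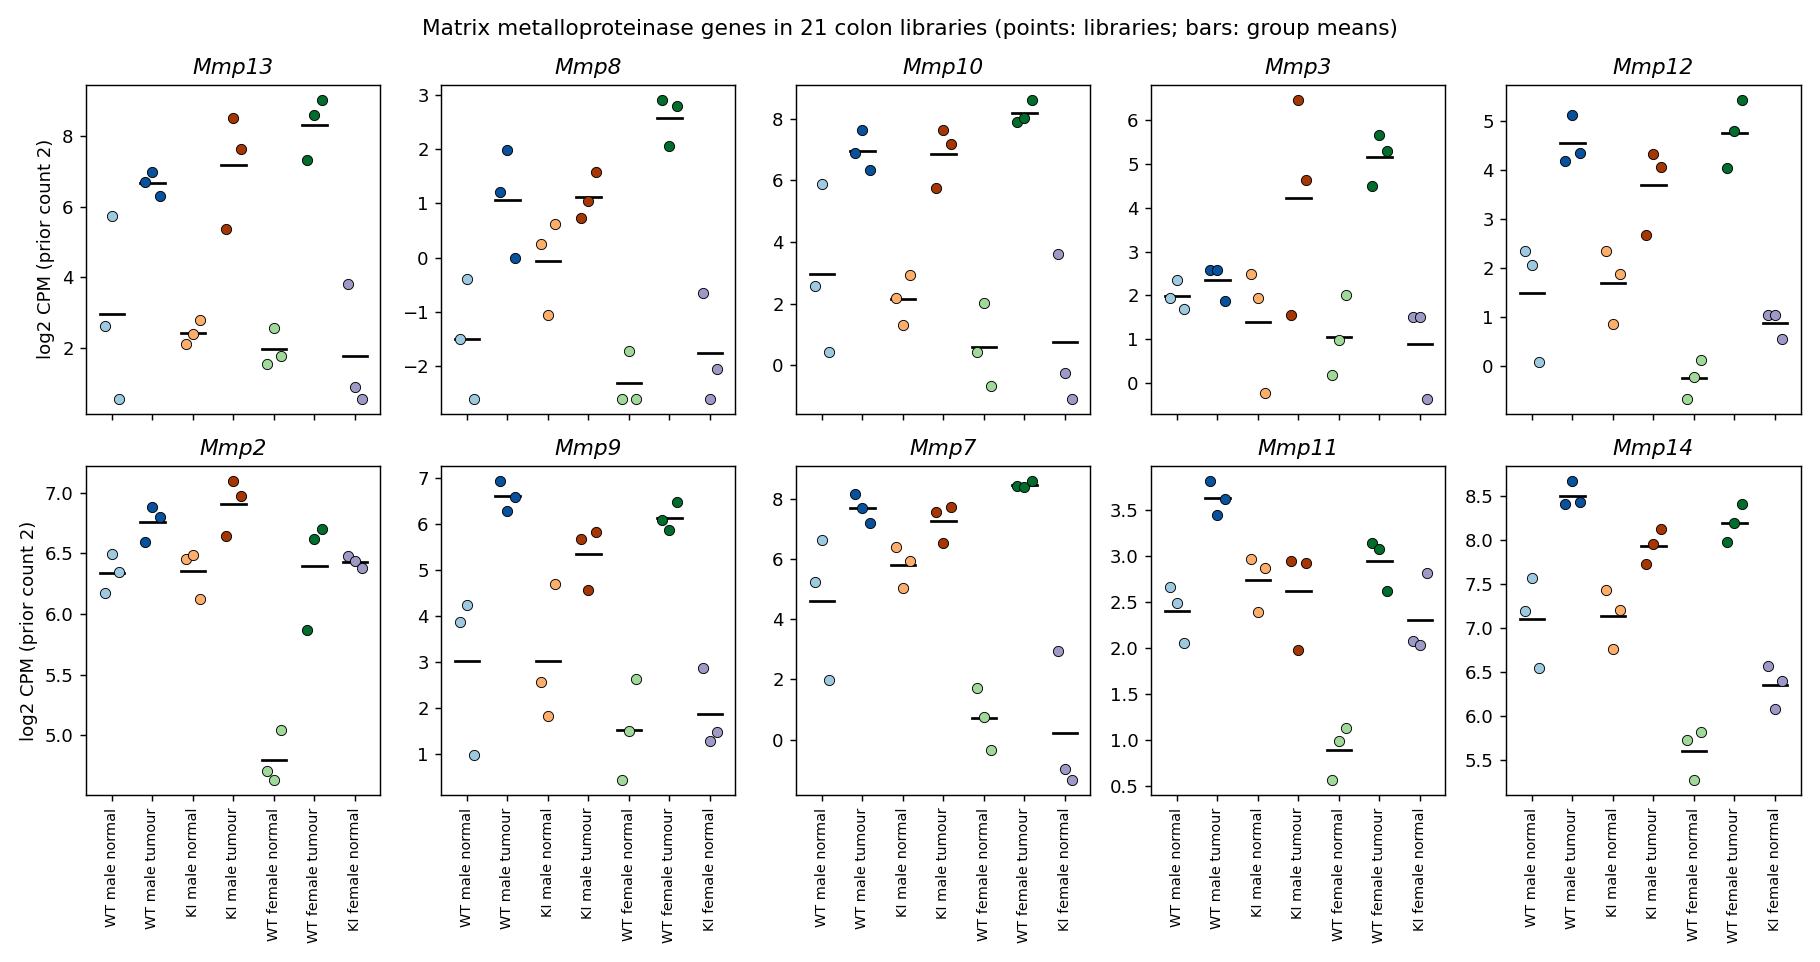
Levels of the 10 genes in each library, as log2 CPM with a prior count of 2, by group (WT, wild-type; KI, knock-in). Points are libraries and bars are means of 3. In wild-type females the tumour libraries lie above the normal libraries for all 10 genes, and the panels of Mmp10 and Mmp13 show wild-type male normal replicate 2 near the tumours.

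Counted together, 7 of the 10 genes were higher in tumours without overlap in all 3 backgrounds, 2, Mmp9 and Mmp11, in wild-type mice of both sexes, and 1, Mmp3, in wild-type females alone. The genes without overlap numbered 9 in wild-type males, 7 in males with the knock-in and 10 in wild-type females. Among all tested genes, 26.0%, 16.1% and 29.9% were higher without overlap in the same comparisons. The edgeR test, with Benjamini-Hochberg adjustment over all tested genes and a threshold of 0.05, counted 5, 6 and 10 of the 10 as higher, against 16.5%, 10.4% and 25.0% of all tested genes. Because these contrasts chose the genes, the counts are descriptive. The median log2 fold change of the 10 genes was 2.27, 1.69 and 5.08, and that of all tested genes 0.005, 0.007 and 0.008. With wild-type male normal replicate 2 left out, the count in wild-type males was 8 in place of 5, and with the replicate number as a block it was 7. In knock-in males the block gave 4, and leaving out tumour replicate 2 gave 2 and normal replicate 2 or 3 gave 3.

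**Figure D3:**
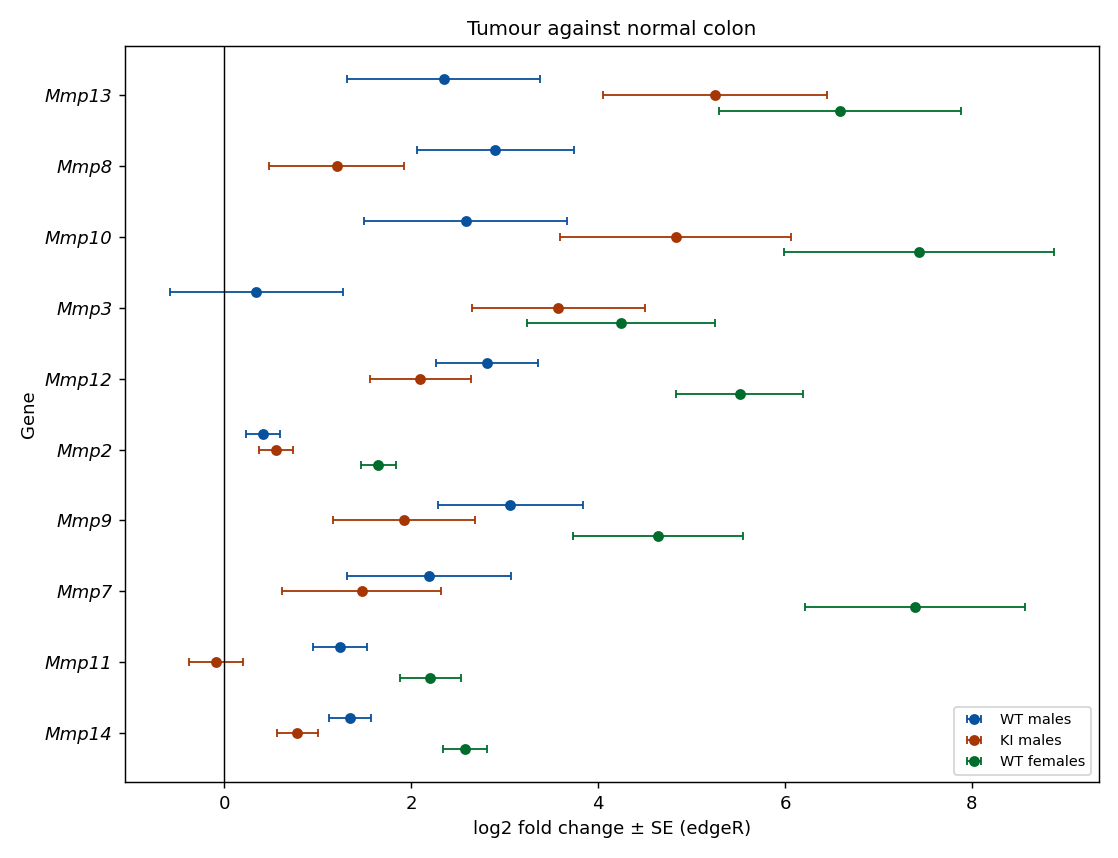
Log2 fold changes between tumour and normal colon with their standard errors, in wild-type (WT) males, knock-in (KI) males and wild-type females. Mmp8 in wild-type females has no point because its normal libraries are under 3 counts. The value of wild-type females is the highest of the 3 for each gene drawn in all of them, from 1.65 for Mmp2 to 7.43 for Mmp10.

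Levels were also compared between the genes per kilobase of exon, as mean CPM per kb. In wild-type female normal colon Mmp14 at 8.27 and Mmp2 at 8.25 CPM per kb led, and Mmp7 followed at 1.65. In the tumours of these females Mmp7 led at 332 CPM per kb, before Mmp10 at 172, Mmp13 at 134 and Mmp14 at 49.4. Mmp7 also led in male normal colon, with 43.4 CPM per kb in wild-type and 55.4 in knock-in males, and in male tumours, with 199 and 153. In knock-in female normal colon Mmp2 led at 25.6 CPM per kb. The summed level of the 10 genes was 81.5 to 106 CPM in the 3 normal libraries of wild-type females and 1175 to 1928 CPM in their tumours, the widest contrast of the 3 backgrounds.

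The effect of genotype was compared in male tumours, male normal colon and female normal colon. In male tumours 2 of the 10 genes passed the edgeR test with Benjamini-Hochberg adjustment. Mmp3 was higher with the knock-in by 2.97 on the log2 scale (SE 0.92, edgeR adjusted p 0.0430), and 2 of the 3 knock-in tumours lay above the wild-type tumours. Mmp11 had the negative log2 difference of -0.99 (SE 0.29, edgeR adjusted p 0.0328), all 3 knock-in tumours being below all 3 wild-type tumours. Of all tested genes 9.30% were called higher and 5.23% lower, beside 1 of the 10 genes in each direction. Mmp9, Mmp11 and Mmp14 were lower without overlap, as were 16.1% of all tested genes. None of the 10 was higher without overlap, as were 20.3% of all.

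The Mmp3 difference rested on knock-in male tumour replicate 2, at 88.6 CPM. Without that library it was 1.44 (edgeR adjusted p 0.293), and it was called in 9 of the 21 fits that each left out 1 library. The omissions that ended the call were those of wild-type male tumour replicate 1, 2 or 3, male normal replicate 1 or 2, female normal replicate 2, female tumour replicate 2 or 3, knock-in male normal replicate 1, knock-in male tumour replicate 2 and knock-in female normal replicate 1 or a. It was not called either without a low-count filter (edgeR adjusted p 0.0639), with the covariate for the 3 libraries numbered 152 and above (0.0616), with the replicate block (0.0956) or in a fit of the compared groups alone (0.204). That library also had the highest sum of the 5 squamous epithelial markers, 3038 CPM, against 56.3 and 360.5 CPM in the other knock-in male tumours and 81.2 to 386 CPM in wild-type male tumours. Among normal libraries, replicate 1 of wild-type males had 1871 CPM and replicate 1 of knock-in males 880.1 CPM of these markers, with Mmp3 at 3.68 and 5.42 CPM. Replicates 1 and b of knock-in female normal colon had 616.6 and 463.3 CPM, with Mmp3 at 2.68 and 0.613 CPM. Whether squamous epithelium took part in the Mmp3 level was not tested. Other marker sums also lay apart between these tumours: smooth muscle markers summed to 846 to 979.5 CPM with the knock-in and 191.8 to 738.7 CPM in wild-type (0 of 7 called), and fibroblast markers to 2864 to 4176 against 2290 to 2698 CPM (1 of 9 called higher). Of the 7 tested macrophage markers 2 were called lower, with sums of 181 to 234.9 against 230.0 to 362 CPM. The part of these cells in the Mmp3 and Mmp11 values was not tested. The Mmp11 difference missed the threshold without knock-in tumour replicate 2 (-0.75, edgeR adjusted p 0.136) and without wild-type tumour replicate 1 (-0.92, 0.102), 2 (-1.07, 0.0527) or 3 (-0.999, 0.0822), and also with only the compared groups (edgeR adjusted p 0.0658) or the covariate (0.0520). Mmp14 (log2 fold change -0.56, SE 0.22, edgeR adjusted p 0.0880), Mmp13 (0.98, SE 0.98, edgeR adjusted p 0.512, and 0.20 without knock-in tumour replicate 2) and Mmp10 (0.01, SE 1.01, edgeR adjusted p 0.995) were not called.

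In male normal colon 0 of the 10 genes passed between the genotypes with edgeR, 0 had an unadjusted p under 0.05, and DESeq2 also called 0. The share of all tested genes was 0.0126%, or 2 genes. The levels of Mmp2 and Mmp14 differed by log2 fold changes of 0.02 (SE 0.18) and -0.003 (SE 0.22).

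In female normal colon 3 genes rose in the knock-in. Mmp2 was higher by 1.64 log2 units (SE 0.19, edgeR adjusted p 4.02e-05), Mmp11 by 1.58 (SE 0.33, edgeR adjusted p 0.00369) and Mmp14 by 0.74 (SE 0.23, edgeR adjusted p 0.0327). All 3 were higher without overlap, as was Mmp12 (1.42, SE 0.73, edgeR adjusted p 0.193). The background was 8.97% of tested genes called higher and 19.6% higher without overlap. Mmp2 and Mmp11 were called in each of the 21 fits that left out 1 library. Mmp14 was lost without wild-type female normal replicate 1 (0.80, edgeR adjusted p 0.0734) or 2 (0.59, 0.154) and without knock-in replicate 1 (0.63, 0.113) or b (0.73, 0.0723). Fibroblast markers moved the same way: 4 of 9 were called higher, and their sum was 2246 to 2813 CPM in knock-in and 1180 to 1414 CPM in wild-type female normal colon. Of the 6 endothelial markers 4 were higher, with sums of 169.5 to 187 against 73.1 to 104 CPM, and of the 7 smooth muscle markers 3, with 6765 to 9582 against 1945 to 4559 CPM. The part of these tissue differences in the Mmp values was not tested.

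The sexes were compared within 3 settings: wild-type normal colon, wild-type tumours and knock-in normal colon. In wild-type normal colon 5 genes fell in females relative to males: Mmp2 (log2 fold change -1.55, SE 0.19, edgeR adjusted p 5.03e-05), Mmp14 (-1.54, SE 0.23, edgeR adjusted p 0.000313), Mmp11 (-1.66, SE 0.32, edgeR adjusted p 0.00243), Mmp7 (-4.46, SE 1.08, edgeR adjusted p 0.0131) and Mmp12 (-2.42, SE 0.69, edgeR adjusted p 0.0248). The background was 10.2% of tested genes called lower. Mmp2, Mmp7, Mmp11 and Mmp14 were lower without overlap, as were 17.4% of all. The wild-type female normal libraries also served in the tumour comparison that chose the genes and in the genotype comparison above, so these results are not independent of one another.

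The calls of Mmp2, Mmp11 and Mmp14 held in each fit without 1 library, and the count of 5 became 3 without male or female normal replicate 2. Mmp7 missed the threshold without wild-type male normal replicate 2 (-3.33, edgeR adjusted p 0.0571) or female normal replicate 2 (-4.34, 0.0629), and was at -5.39 without female normal replicate 1. Mmp12 missed it without male normal replicate 1 (-2.03, edgeR adjusted p 0.113) or 2 (-2.30, 0.0639) and without female normal replicate 1 (-2.06, 0.137) or 2 (-2.48, 0.0797), and in a fit of the compared groups alone (-2.39, 0.0586). Fibroblast markers were again on the same side, with 5 of 9 called lower and sums of 1180 to 1414 CPM in females against 2438 to 2733 CPM in males. Of the 6 endothelial markers 5 were called lower, of the 4 tested Paneth cell markers 3, and of the 7 smooth muscle markers 1.

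In wild-type tumours 0 of the 10 genes passed between the sexes with edgeR, 3 had an unadjusted p under 0.05, and DESeq2 called 1, Mmp3. Of all tested genes edgeR called 0.860%, or 137, and DESeq2 called 781. The share of all genes with an unadjusted p under 0.05 was not counted in any comparison. Mmp3 was at 22.4 to 51.0 CPM in female and 3.50 to 5.83 CPM in male tumours, without overlap (log2 fold change 2.92, SE 0.92, edgeR adjusted p 0.10). Mmp7, Mmp8, Mmp10 and Mmp13 were also higher in the female tumours without overlap and Mmp11 lower, none of them called. Among all tested genes 16% were higher and 15.3% lower without overlap between these tumours. In knock-in normal colon 0 of the 10 passed with edgeR, against a background of 0.584%, or 93 genes. Of the 10, 3 had an unadjusted p under 0.05. DESeq2 called Mmp7 and Mmp14 as lower in females, among 583 of all tested genes called. Mmp7 differed by -4.29 (SE 1.03, edgeR adjusted p 0.0750), the female libraries holding at most 7.50 CPM and the male libraries at least 32.5 CPM. Without knock-in female normal replicate 1 the difference was -7.70 (edgeR adjusted p 0.0538). Replicates a and b, which then remain, held 3 counts of Mmp7 each, at the floor, so the size of that difference is not resolved.

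**Figure D4:**
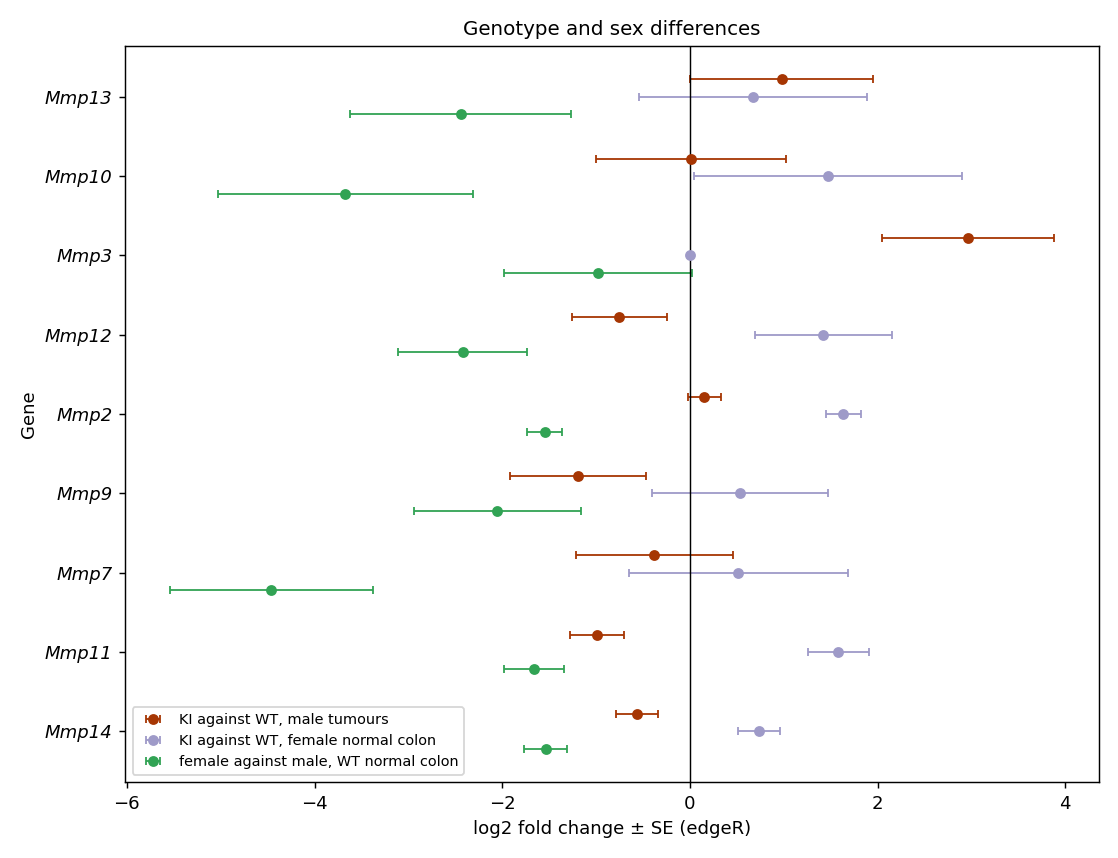
Log2 fold changes with standard errors for knock-in (KI) against wild-type (WT) in male tumours and in female normal colon, and for females against males in wild-type normal colon. Mmp8 is left out for its low counts, and the Mmp3 point at 0.00 has no error bar. Mmp2, Mmp11 and Mmp14 lie at 0.74 or above in knock-in female normal colon and at -1.54 or below in wild-type females against males, comparisons that share the wild-type female normal libraries.

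Effects were also compared with each other by interaction terms. The terms that contain a difference between tumour and normal colon are built of the contrasts that chose the genes, so for the 10 genes they are given as values with no p-value. The tumour effect on Mmp2 differed between wild-type females and wild-type males by 1.23 on the log2 scale (SE 0.26), or 0.91 with the covariate for the 3 libraries numbered 152 and above. Between the genotypes, the tumour effect in males differed by 3.23 (SE 1.29) for Mmp3, or 1.72 without knock-in tumour replicate 2, and by -1.32 (SE 0.41) for Mmp11. As descriptions, edgeR counted 1 of the 10 genes for the sex by tumour term, against 1.12% of all tested genes. For the genotype by tumour term it counted 0, against 1.51%, and DESeq2 counted 1. Of all tested genes DESeq2 counted 1207 for that term. The genotype by sex term rests on normal colon alone. The genotype effect on Mmp2 there was larger in females than in males by 1.62 (SE 0.26, edgeR adjusted p 0.00398), the only one of the 10 genes called, against 2.54% of all tested genes, and held in each of the 21 fits. It shares the wild-type female normal libraries with the tumour comparison that chose the genes.

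The genes around the protease system were taken from 8 lists and tested in all comparisons with the same edgeR fit, adjusted over all tested genes. The lists were chosen with earlier results of these data known, so their counts are descriptions. They stand beside the shares of all tested genes called in tumours: 16.5% higher and 19.3% lower in wild-type males, 10.4% and 9.97% in knock-in males, and 25.0% and 24.0% in wild-type females. Of the other Mmp genes, 10 of 13 were tested, Mmp1a, Mmp1b and Mmp27 being too low. In wild-type male tumours 1 rose and 3 fell, in knock-in male tumours 0 and 2, and in wild-type female tumours 4 and 1. Each of these counts was within 2 genes of the number that the shares of all tested genes give for a list of 10. In a fit of the compared groups alone, the 3 lower calls of wild-type males became 1. The 2 lower calls of knock-in males became 1 there, with the replicate block or the covariate, and without any 1 of tumour replicates 1, 2 and 3. With the covariate the 4 higher calls of wild-type females became 2. Mmp20, a member of the chromosome 9 cluster best known from tooth enamel, rose in wild-type male tumours from 0.144 to 1.18 CPM (log2 fold change 2.57, edgeR adjusted p 0.0369). The floor of 3 counts was 0.142 to 0.298 CPM in these normal libraries. That call was lost in a fit of the compared groups alone and without normal replicate 3 or tumour replicate 1 or 2. Against the floor, wild-type female tumours held at least 3.23-fold higher Mmp20 (edgeR adjusted p 0.00485). In these tumours Mmp25, a membrane-anchored enzyme of leukocytes, rose by 1.78 (edgeR adjusted p 0.0191). Mmp17, also membrane-anchored, fell by 2.37 in wild-type (edgeR adjusted p 0.000178) and by 1.88 in knock-in male tumours (edgeR adjusted p 0.00300), and Mmp23 fell in knock-in male tumours by 0.70 (edgeR adjusted p 0.0439). Mmp16 was at least 2.79-fold lower in wild-type male tumours (edgeR adjusted p 0.00732) and fell by 2.16 in those of wild-type females (edgeR adjusted p 0.0224). Its call in females was lost with the compared groups alone, with the covariate and without normal replicate 3 or tumour replicate 3. The median log2 fold change of this list was -0.07, -0.26 and 0.14 in the order of groups used above.

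Inhibitors moved in both directions. Of 6 tested, 1 rose and 2 fell in wild-type male tumours, 0 changed in knock-in males, and 3 rose and 2 fell in wild-type females. These counts too were within 2 genes of the background number. Without wild-type male normal replicate 3 or tumour replicate 1, none was called lower in wild-type males, and 1 was without tumour replicate 3. Timp1, the cytokine-inducible inhibitor, rose by 1.69 in wild-type males (edgeR adjusted p 0.00267) and by 3.39 in wild-type females (edgeR adjusted p 4.71e-06). Timp4 fell by 1.80 (edgeR adjusted p 0.0115) and by 2.16 (edgeR adjusted p 0.00276), and the membrane-anchored inhibitor Reck fell by 1.13 (edgeR adjusted p 0.0156) and by 1.08 (edgeR adjusted p 0.0183). Timp3 rose by 1.04 in wild-type females (edgeR adjusted p 0.000205). In female normal colon Timp2, which also takes part in the activation of pro-Mmp2 by Mmp14, rose in the knock-in by 1.86 (edgeR adjusted p 1.97e-06) and Timp3 by 1.45 (edgeR adjusted p 0.000137). Between the sexes in wild-type normal colon, Timp2 and Timp3 fell in females by 1.61 (edgeR adjusted p 4.95e-06) and by 1.11 (edgeR adjusted p 0.000943).

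Activators of the proenzymes came next. Of 7 tested genes of the plasminogen activator system, whose product plasmin cleaves several pro-MMPs, 3 rose in tumours of wild-type males, 3 in those of knock-in males and 5 in those of wild-type females, and none fell in these comparisons. The shares of all tested genes give 1.2, 0.7 and 1.8 higher. In knock-in males the count was 1 without normal replicate 2 or 3 or tumour replicate 2. The tissue-type activator Plat rose by 2.72 in wild-type males (edgeR adjusted p 0.00576) and by 4.65 in wild-type females (edgeR adjusted p 0.000123). Plaur, the urokinase receptor, rose in wild-type males by 1.97 (edgeR adjusted p 0.00256). The urokinase gene Plau rose in knock-in males by 2.19 (edgeR adjusted p 0.00448) and the protease inhibitor gene Serpine2 by 1.68 (edgeR adjusted p 0.0214). Of 7 tested proteases that activate pro-MMPs or their kin, 2 rose and 2 fell in wild-type tumours of each sex, and 1 rose and 1 fell in knock-in males, all within 1 gene of the background number. The proprotein convertase genes divided: Furin rose by 0.75 (edgeR adjusted p 0.00241) and 1.02 (edgeR adjusted p 8.87e-05) in tumours of wild-type males and females, while Pcsk7 fell by 0.91 (edgeR adjusted p 5.04e-05) and 1.20 (edgeR adjusted p 1.09e-06).

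Cytokines that induce MMPs were higher in tumours where called. Of 7 tested, 5 rose in tumours of wild-type males, 2 in those of knock-in males and 6 in those of wild-type females, with none lower, where the shares of all tested genes give 1.2, 0.7 and 1.8 higher. The count in wild-type males was 2 in a fit of the compared groups alone or without tumour replicate 2, and 3 without normal replicate 1 or 3. In knock-in males it ran from 1 to 4 over the alternatives, being 1 without normal replicate 1 or 2, tumour replicate 2 or 3, wild-type male normal replicate 1 or knock-in female normal replicate 1, and 4 without wild-type male tumour replicate 2. In wild-type males Il1b rose by 2.73 (edgeR adjusted p 0.0105) and Tnf by 2.62 (edgeR adjusted p 0.00173). In knock-in males Il11 rose by 3.58 (edgeR adjusted p 0.0115) and Il1a by 2.43 (edgeR adjusted p 0.0383). In wild-type females Il11 rose by 6.12 (edgeR adjusted p 9.08e-05). Il6 was at least 13.5-fold higher there, with an adjusted p of 0.00370. Compared with wild-type male tumours, those of knock-in males had less Tnf (log2 fold change -1.89, edgeR adjusted p 0.0309) and less Tgfb1 (-0.73, edgeR adjusted p 0.0120). These 2 calls became 1 with the compared groups alone and without wild-type tumour replicate 2 or knock-in tumour replicate 1 or 2. Of the 15 AP-1, Ets and Runx factors, 6 rose in wild-type male tumours, 2 rose and 1 fell in knock-in males, and 7 rose and 2 fell in wild-type females, beside 2.5, 1.6 and 3.8 higher at the shares of all tested genes. Without normal replicate 3 the count of wild-type males was 3, and without normal replicate 2 or 3 or tumour replicate 2 that of knock-in males was 0. The latter was 1 without tumour replicate 1 or 3, wild-type male normal replicate 2, wild-type male tumour replicate 1 or knock-in female normal replicate 1. Fosl1, an AP-1 subunit, rose in the 3 comparisons by 2.03 (edgeR adjusted p 0.0102), 2.13 (edgeR adjusted p 0.0212) and 3.16 (edgeR adjusted p 0.00152). Etv5 rose in wild-type males by 2.0 (edgeR adjusted p 0.0252) and in wild-type females by 3.30 (edgeR adjusted p 0.00105), and Runx1 in knock-in males by 0.77 (edgeR adjusted p 0.0385). Fos itself fell in wild-type females by 1.22 (edgeR adjusted p 0.0208). Between male tumours of the genotypes, Junb was lower with the knock-in (-1.08, edgeR adjusted p 0.0204). The Junb call was lost without wild-type tumour replicate 2 or knock-in tumour replicate 1 or 2.

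Related proteases and substrates completed the set. Of 16 ADAM and ADAMTS genes, 5 rose and 5 fell in wild-type male tumours, 2 and 2 in knock-in males, and 8 and 3 in wild-type females. The shares of all tested genes give 2.6 higher and 3.1 lower, 1.7 and 1.6, and 4.0 and 3.8, so that the counts of knock-in males and the lower count of females are near the background. In wild-type males 3 rose in a fit of the compared groups alone or without tumour replicate 1, and 3 fell without normal replicate 3 or tumour replicate 1 or 2. Adam12 rose by 2.0 (edgeR adjusted p 0.0104) in wild-type males and by 5.21 (edgeR adjusted p 1.31e-05) in wild-type females, and Adam8, a protease of myeloid cells, by 2.01 (edgeR adjusted p 0.0107) and 4.04 (edgeR adjusted p 8.28e-05). Adamts12 rose in knock-in males by 1.91 (edgeR adjusted p 0.00176), and Adamts8 fell by 3.14 (edgeR adjusted p 8.39e-05) in wild-type and by 1.85 (edgeR adjusted p 0.00568) in knock-in males. Of 12 matrix substrates, 4 rose and 1 fell in wild-type males, 3 and 1 in knock-in males, and 10 rose in wild-type females, beside 2.0, 1.2 and 3.0 higher at the shares of all tested genes. The 4 of wild-type males became 1 without tumour replicate 1 and 2 without any 1 of normal replicates 1 and 3, tumour replicates 2 and 3, knock-in male normal replicate 1 and knock-in female normal replicate 1. Spp1, osteopontin, rose by 2.10 (edgeR adjusted p 0.0467), 3.45 (edgeR adjusted p 0.0108) and 6.90 (edgeR adjusted p 4.90e-05), and elastin, Eln, fell in wild-type and knock-in males by 2.44 (edgeR adjusted p 0.000244) and 1.60 (edgeR adjusted p 0.00829). In female normal colon 7 of the 12 substrates rose in the knock-in, led by the basement membrane collagen Col4a2 (1.80, edgeR adjusted p 0.000143) and fibronectin, Fn1 (1.61, edgeR adjusted p 0.000129). Between the sexes, 8 of the 12 fell in wild-type female normal colon, among them Col4a2 by 2.08 (edgeR adjusted p 3.72e-05) and Fn1 by 1.98 (edgeR adjusted p 1.83e-05). The shares of all tested genes give 1.1 higher for this genotype comparison and 1.2 lower for this comparison of the sexes.

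Cell markers were summed beside these results. The 6 neutrophil markers in the table summed to 1.89 to 26.6 CPM in normal colon and to 34.2 to 172 CPM in tumours, where 2 were called higher in wild-type males, 6 in wild-type females and 0 with the knock-in. Wild-type male normal replicate 2, the normal library highest in Mmp10 and Mmp13, had the highest neutrophil sum of the normal libraries, 26.6 CPM. Its macrophage and endothelial sums, 296 and 247 CPM, were also the highest of the normal libraries. Its smooth muscle sum, 2827 CPM, was the lowest of the male normal libraries. Fibroblast markers summed to 2290 to 2698 CPM in wild-type male tumours and 2438 to 2733 CPM in the normal colon, with 0 of 9 called higher and 2 lower. In knock-in males they summed to 2864 to 4176 CPM in tumours and 2283 to 3694 CPM in normal colon, with 2 of 9 higher and 0 lower. In wild-type females the sums were 1812 to 2916 CPM in tumours and 1180 to 1414 CPM in normal colon, with 5 of 9 higher and 2 lower. The part of cell composition in the Mmp values was not tested.

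**Figure D5:**
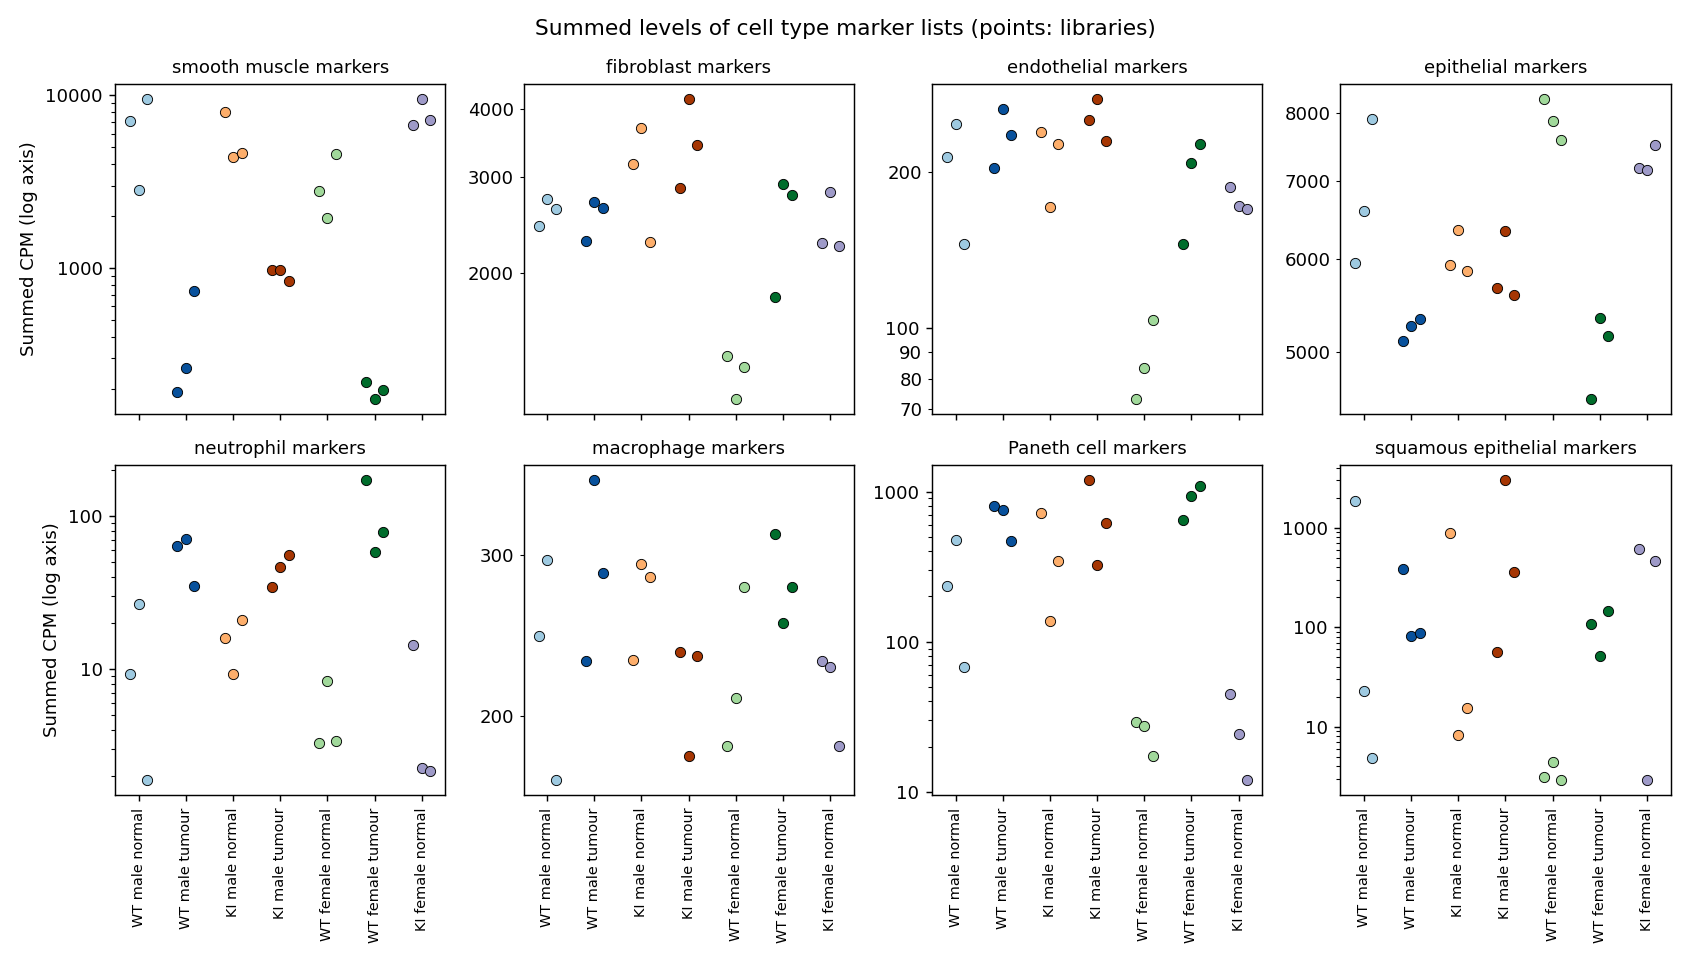
Summed CPM of 8 lists of cell type markers in each library, by group, on log axes (WT, wild-type; KI, knock-in). Smooth muscle sums are at most 979.5 CPM in tumours and at least 1945 CPM in normal colon, neutrophil sums at least 34.2 CPM in tumours and at most 26.6 CPM in normal colon. Fibroblast and endothelial sums are lowest in wild-type female normal colon.

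Genes with the most similar profile over the 21 libraries were found for each of the 10 by the root mean square difference of log2 CPM centred on each gene's mean. Mmp10 and Mmp13 were each other's nearest gene, at 0.75 log2 units, and shared Saa3, an acute phase gene, and Il1rl1, the interleukin 33 receptor gene, as the other two. The nearest to Mmp14 were Sh3pxd2b (0.14), Elk3 (0.18) and Sorcs2 (0.20), and to Mmp2 Plxnd1 (0.23), Lamc1 (0.24) and Zkscan17 (0.24). Mmp8 was nearest to the neutrophil gene Retnlg (0.56), followed by Olr1 (0.65) and Trem1 (0.66), and Mmp9 to Slco5a1 (0.60), Plat (0.62) and Arnt2 (0.64). Mmp7 was nearest to Notum (0.83) and Wif1 (0.86), secreted Wnt antagonists, and then to Erich3 (0.92), and Mmp12 to Inhba (0.47), Ier3 (0.51) and Ttc9 (0.53). Mmp11 was nearest to Pald1 (0.28), Pcbp4 (0.29) and Mras (0.33). Mmp3 had the loosest neighbours on this scale, Gcnt4 (0.98), Faim2 (1.03) and Erbb4 (1.04). Erbb4 averaged 0.323 CPM, within the 0.127 to 0.873 CPM of the floor of 3 counts. The distances were not scaled by each gene's own spread, a standard deviation of 0.67 log2 units for Mmp2, 1.83 for Mmp3 and 3.22 for Mmp10. The points of these profiles share their libraries and the tumour difference.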

How the data were processed

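Total RNA of mouse colon was rid of ribosomal RNA with RNase H, primed with random hexamers and sequenced on a NovaSeq, per the labels' protocols. The deposited table holds raw counts per gene, which the authors made with featureCounts. Trimmomatic, HISAT2, DESeq2 and mm10 are named in the submitters' processing notes. The use of strand and of reads with several matches is not given in the sources used here. A second table of the authors' DESeq2 results was not used. The header repeats a column name in knock-in female normal colon, so these 2 columns are unnumbered replicates, a and b.

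Groups were compared with edgeR's quasi-likelihood test (edgeR 4.0.16, R 4.3.3), two-sided, with TMM scaling, filterByExpr by group, 1 coefficient per group and all 21 libraries, for 9 pairs of groups and 3 interactions, with Benjamini-Hochberg adjustment over 15936 genes at 0.05. For the 10 genes, tumour against normal colon and the 2 interactions with tumour give no p-value, because those contrasts chose them. Standard errors were the log2 change divided by the root of F. Promoters and positions are from RefSeq, exon lengths from GENCODE vM21. The statistics were tested on simulated data. Alternatives were DESeq2 1.42.0 size factors or its Wald test, no filter, only the compared groups, the replicate number as a block, a covariate for the libraries numbered 152 and above, and omission of each library. Replicate numbers come from the library names. Same-numbered libraries deviated together only in wild-type male tumours and normal colon, with correlations of 0.169 to 0.215 over the 3 pairs, where the block is given beside the result.

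The genes, the 8 lists of related genes and the cell type markers were chosen with earlier results of these data known. Named list genes are up to 2 higher and 2 lower with the largest log2 fold change among those called in a comparison. Similar genes are the nearest 3 for each gene. A gene selected for naming from the pathway lists is not reported here.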

Additional observations from a re-analysis of the deposited data

Results flagged for a closer look

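The effect of the knock-in on Mmp2, the gelatinase of stromal cells, in normal colon differed between the sexes. It was larger in females than in males by 1.62 on the log2 scale (SE 0.26, edgeR adjusted p 0.00398), from 1.64 (SE 0.19) in females and 0.02 (SE 0.18) in males, and 3 of 3 knock-in female libraries were above the wild-type ones. The call held in each of the 21 fits without 1 library. It rests on the wild-type female normal libraries, at 24.7 to 32.8 CPM, in which fibroblast markers also had their lowest sums, 1180 to 1414 CPM. These libraries also entered the tumour comparison that chose the genes. The part of the marker difference in Mmp2 was not tested.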

How the results depend on the processing

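No log2 fold change followed through the alternatives changed sign past the threshold. All 10 genes were followed in tumours against normal colon. Elsewhere only genes with an edgeR unadjusted p under 0.05 were followed, and Mmp13 between male tumours of the genotypes. The number of the 10 genes called in wild-type female tumours was 10 in each alternative, and the genotype by sex interaction gave 1 in each. With the DESeq2 Wald test, the count was 1 between the sexes in wild-type tumours and 2 between the sexes in knock-in normal colon. For the genotype by tumour interaction it was 1, and for the sex by tumour interaction 4. In this order edgeR gave 0, 0, 0 and 1. Over all tested genes DESeq2 called 781, 583, 1207 and 563, where edgeR called 137, 93, 240 and 179. With only the compared groups, the count of the 10 genes was 2 in place of 6 for knock-in male tumours. It was 1 in place of 2 between male tumours of the genotypes and 1 in place of 0 between the sexes in tumours. Between male tumours of the genotypes it was also 1 without a low-count filter, 1 with the replicate block and 0 with the covariate for libraries numbered 152 and above, which also gave 0 for the sex by tumour interaction. The cause of these shifts was not tested. The counts in tumours against normal colon and in the terms built of them are descriptions.

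Leaving out each library in turn gave 4 to 8 genes in wild-type male, 2 to 6 in knock-in male and 10 to 10 in wild-type female tumours against normal colon. Between the genotypes it gave 0 to 3 in male tumours, 0 to 0 in male and 2 to 3 in female normal colon. Between the sexes it gave 0 to 1 in wild-type tumours, 3 to 7 in wild-type and 0 to 2 in knock-in normal colon. The interactions gave 0 to 1 (genotype by tumour), 0 to 4 (sex by tumour) and 1 to 1 (genotype by sex). With the replicate block, the count was 7 in wild-type male, 4 in knock-in male and 10 in wild-type female tumours, and of the other 6 comparisons it could be run in, it changed the count only between male tumours of the genotypes. It was not run in the 3 comparisons with knock-in female normal colon, whose columns are not all numbered. Outside wild-type males the numbers did not pair the libraries, with correlations from -0.300 to 0.461.

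Counts of list genes moved by more than 1.5 times in 56 of 560 values under other settings and in 165 of 2016 without 1 library. For the cytokines, the count of 5 in wild-type male tumours ran from 2 to 6 and that of 2 in knock-in male tumours from 1 to 4.

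Over all genes, counts moved by more than 1.5 times in several comparisons. With only the compared groups they were 724 for 3246 in knock-in male tumours, 1438 for 2315 between male tumours of the genotypes, 1623 for 2534 between the sexes in wild-type normal colon and 1166 for 137 in wild-type tumours. Over the settings with all libraries, the count ran from 17 to 583 between the sexes in knock-in normal colon (93 in the main test), from 0 to 6 between the genotypes in male normal colon (2), and for the genotype by tumour, sex by tumour and genotype by sex interactions from 0 to 1207 (240), 23 to 563 (179) and 254 to 901 (405). At 3 counts the shallowest library resolves 0.873 CPM, so Mmp8 in normal colon is near the limit of depth.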
